A study of Mus musculus with 19 samples.

Results

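The genes described here are those of the mouse major histocompatibility complex (MHC) and of peptide loading for it, in liver tumors. They were chosen by name: every gene of the deposited table whose symbol starts with H2-, with B2m, Tap1, Tap2, Tapbp, Ciita, Cd74 and Nlrc5. This gave 49 of the 19486 genes in the table. Of these, 35 belong to class I (30 heavy chain genes and pseudogenes, and 5 partners of the heavy chain), 12 to class II, and 2 (H2-KE2 and H2-Ke6) lie among the MHC genes but encode no MHC chain. The RNA of 19 mouse samples labelled as liver, hepatocellular carcinoma was sequenced in bulk. The 5 groups carry the labels MYC_HCC (5 libraries), MYC_Twist1_HCC (5), MYC_OFF (3), MYC_Recur (3) and MYC_Twist1_OFF (3). All groups share the name of the MYC oncogene, and the groups with Twist1 in their name add that transcription factor. The labels give no strain, age, promoter, treatment or time for any group, and do not say what OFF or Recur involved beyond those words. They also do not say that the samples came from separate animals, so the p-values below measure the spread between these samples.

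Class I molecules hold peptides cut by the proteasome inside the cell and show them to CD8+ T cells. The heavy chain folds with beta-2 microglobulin in the endoplasmic reticulum, where the transporter Tap1-Tap2 brings in peptides and tapasin (Tapbp) helps to load them. Class II molecules are made mostly by dendritic cells, B cells and macrophages; their chains assemble with the invariant chain Cd74, exchange its remnant for a peptide with the help of H2-DM, and show it to CD4+ T cells. Interferon gamma raises both pathways, class I mainly through Nlrc5 and class II through Ciita. Hepatocytes normally carry little class I on their surface and no class II.

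The values are a normalised expression signal whose formula is not given in the sources used here, so that depth is unknown and levels of different genes are not compared. The values summed to between 507868 and 690310 per library. Myc stood between 102 and 180.5 in the 13 libraries labelled HCC or Recur and between 32.6 and 59.8 in the 6 labelled OFF. Twist1 did not exceed 0.12 in any library with Twist1 in its label, so these are named by label only. All 12 hepatocyte marker genes were measured, and their summed signal was 6830 to 16500 in the HCC and Recur libraries against 2220 to 3860 in the OFF libraries. MYC_HCC 4 and 5 stood apart from the other MYC_HCC libraries, with hepatocyte sums of 16500 and 10900 against 9240 to 10100 and macrophage sums of 240 and 722 against 397 to 422. By their titles the 10 HCC libraries were re-analysed and the other 9 were not, so in any comparison of an HCC group with an OFF or Recur group the deposit and the condition cannot be told apart. In bulk tissue, fewer cells of a type and less RNA per cell cannot be told apart either.

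The region just upstream of a classical class I or class II gene is known for a short module, the SXY module, whose X2 box and Y box are bound by the complex that Nlrc5 and Ciita join; class I genes add an NF-kappa-B site called enhancer A and an interferon response element. Promoter sequences were found for 32 of the 49 genes. The 250 bases before the start site are shown for 5 genes that the results below turn on: a classical heavy chain, its light chain, a liver-secreted class I chain, a chain for bacterial peptides and a class II chain. They come from RefSeq on build GRCm38.p6, read 5′ to 3′ along the gene. Capitals mark matches, on either strand, to the Y box core ATTGG, the X2 box core TGACG, the enhancer A core (the 10 capitals in a row in the H2-K1 line) or the interferon element core (the 10 in the B2m line, with any letters between its GAAA ends); CACGTG, the E box that MYC binds, was searched as well.
H2-K1, chr17:34000348-34000597, minus strand: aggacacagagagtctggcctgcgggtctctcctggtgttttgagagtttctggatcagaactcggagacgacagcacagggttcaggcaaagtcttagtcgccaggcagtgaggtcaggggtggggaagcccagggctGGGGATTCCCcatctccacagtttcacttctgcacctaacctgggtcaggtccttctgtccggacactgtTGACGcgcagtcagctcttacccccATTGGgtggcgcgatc
B2m, chr2:122147437-122147686, plus strand: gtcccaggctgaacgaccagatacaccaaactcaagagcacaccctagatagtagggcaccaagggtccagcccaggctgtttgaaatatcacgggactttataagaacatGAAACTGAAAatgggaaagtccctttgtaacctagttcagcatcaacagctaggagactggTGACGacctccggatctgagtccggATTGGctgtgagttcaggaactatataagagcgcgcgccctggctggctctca
H2-Q10, chr17:35469839-35470088, plus strand: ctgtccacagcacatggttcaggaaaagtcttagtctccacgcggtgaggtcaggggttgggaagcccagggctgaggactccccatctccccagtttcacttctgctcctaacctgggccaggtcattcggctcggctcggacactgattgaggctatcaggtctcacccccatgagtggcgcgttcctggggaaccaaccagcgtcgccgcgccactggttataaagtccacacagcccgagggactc
H2-M3, chr17:37269984-37270233, plus strand: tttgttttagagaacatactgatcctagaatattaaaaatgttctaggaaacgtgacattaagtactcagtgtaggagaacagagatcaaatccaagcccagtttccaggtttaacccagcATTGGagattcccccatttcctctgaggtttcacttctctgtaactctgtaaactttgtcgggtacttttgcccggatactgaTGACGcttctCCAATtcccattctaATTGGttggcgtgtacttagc
H2-Aa, chr17:34287824-34288073, minus strand: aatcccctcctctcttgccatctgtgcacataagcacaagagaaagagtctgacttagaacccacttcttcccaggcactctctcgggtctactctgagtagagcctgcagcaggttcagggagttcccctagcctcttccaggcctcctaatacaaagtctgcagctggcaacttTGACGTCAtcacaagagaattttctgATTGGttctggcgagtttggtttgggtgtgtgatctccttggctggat
The H2-K1 window held 1 enhancer A, 1 X2 and 1 Y match, and the B2m window 1 interferon element, 1 X2 and 1 Y match. The H2-Q10 window held no exact match to any of the motifs. H2-M3 had 3 Y matches and 1 X2 match. H2-Aa had 1 Y match and 2 X2 matches, which overlap as the sites on the opposite strands of TGACGTCA. Of the 12 tested class I genes with a promoter sequence, 10 held a Y match, 7 an X2 match, 2 enhancer A (H2-K1 and H2-D1), 2 the interferon element (B2m and H2-T23) and none the E box. Of the 5 tested class II genes with a sequence, 5 held a Y match and 1 (H2-Aa) an X2 match. H2-DMa has 2 windows, and its Y match lies in only 1 of them, 198 bases before that start. H2-K1 has another window, not shown, with 2 Y matches. A gene was counted if any of its windows held a match, while the shares that follow are of single promoters. Among 32851 promoters of the same length, 33.8% held the Y core, 17.8% the X2 core, 0.0852% enhancer A, 2.98% the interferon element and 6.02% the E box. A match is a run of letters and says nothing on binding. Only exact matches were searched, so a window without a match can still hold a variant of the element.

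A gene was tested where its value reached 1 in at least 3 libraries. This held for 31 of the 49 genes and 13253 genes in all: 22 of 35 class I genes, 7 of 12 class II genes and both region genes. Of these, 3 low genes passed mainly through libraries in which they were high: H2-Q1 reached 1 in 6 libraries, of which 5 were OFF libraries, H2-T3 in 3, of which 2 were OFF libraries, and H2-Ob in 7, of which 4 were OFF libraries. A gene admitted in this way is likely to differ between OFF and other groups, so its calls below add no support to any count. The regulators Nlrc5 and Ciita were not tested. Nlrc5 lay between 0.08 and 0.37 in all 19 libraries. Ciita was listed at 0 in 9 libraries and was highest at 0.56 in MYC_Recur 3, above the 0.16 and 0.31 of the other MYC_Recur libraries. The other untested genes were H2-Eb1, H2-Eb2, H2-Ea-ps and H2-Oa of class II, and, of class I, H2-Q6, H2-Q7, H2-T9, H2-T22, H2-M5, H2-M9, H2-M11 and 5 genes of the H2-M10 family. Of the 49 genes, 45 had a position in the GENCODE annotation of GRCm38, 41 of them on chromosome 17; H2-L, H2-Q8, H2-Q9 and H2-T9 had none there.

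**Figure D1:**
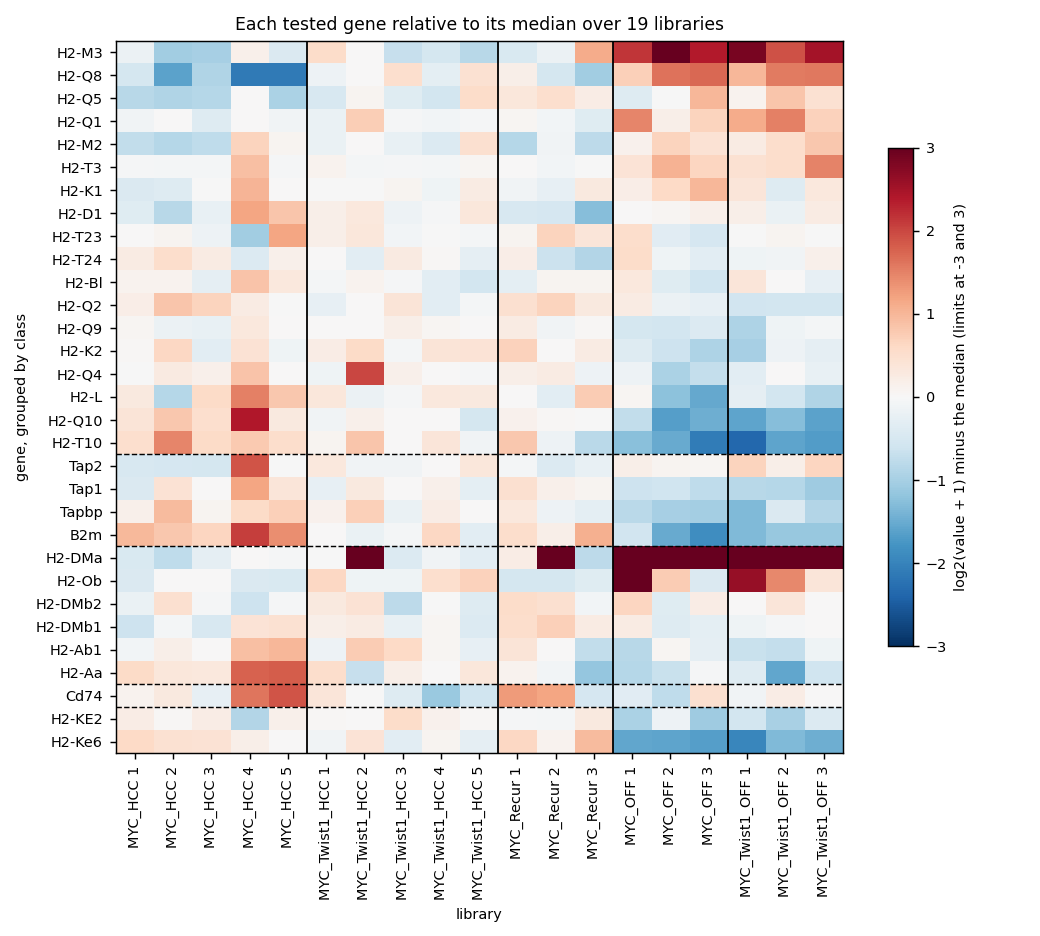
Heat map of the 31 tested MHC and peptide-loading genes (vertical) in 19 libraries (horizontal, by group). Colour gives log2(value + 1) minus the median of that gene over all libraries, from -3 to 3; B2m, H2-Q10, H2-T10 and H2-Ke6 are lower and H2-M3, H2-Q8 and H2-DMa higher in the 6 OFF libraries than in most others.

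The libraries labelled MYC_OFF were compared with MYC_HCC first. B2m, Tap1 and Tapbp of the class I partners fell, the classical heavy chains H2-K1 and H2-D1 passed no test, some other heavy chains rose and others fell, and of class II H2-Aa fell while H2-DMa and H2-Ob rose. Of the 31 tested genes 6 were higher and 10 lower (limma on log2(value + 1), Benjamini-Hochberg adjusted p under 0.05 over all genes tested), where 18.9% of all genes were called higher and 39.4% lower. The scale matters here: the median log2 fold change of all genes was -0.38 on the deposited scale and 0.10, 0.04 and 0.10 after median of ratios, trimmed mean of M values and upper quartile scaling of the libraries. The share of all calls that were higher was 32.5% as deposited and 53.9%, 50.8% and 53.9% under those scalings. Each fold change below is a difference of log2(value + 1), a scale that shrinks the change of low genes.

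B2m encodes beta-2 microglobulin, the light chain of every class I molecule (chromosome 2, 122147686 to 122153083). Its values were 554, 500.4, 443, 1198 and 747 in MYC_HCC and 189, 97.97 and 77.5 in MYC_OFF. Each MYC_OFF library lay below each MYC_HCC library, and MYC_HCC 4 was the highest of all. B2m fell by 2.50 on the log2 scale (SE 0.33, limma adjusted p = 6.16e-06), 5.66-fold on that scale, and lay 2.12 below the shift of all genes. It was called under each of the 18 other settings tried for this comparison, among them the 3 other scalings. The Patl2 gene overlaps all 5398 bases of B2m on the opposite strand, and whether counting used strand is not given in the sources used here.

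Of the transporter and its chaperone, Tap1 and Tapbp fell and Tap2 was not called. Tap1, which forms the peptide transporter with Tap2 (chromosome 17, 34187553 to 34197225), was at 0.64, 2.01, 1.25, 4.06 and 1.87 in MYC_HCC and at 0.44, 0.46 and 0.3 in MYC_OFF. All MYC_OFF values were below all MYC_HCC values, and Tap1 fell by 0.98 (SE 0.28, limma adjusted p = 0.00533). Tapbp, which bridges the transporter and the empty class I molecule (chromosome 17, 33915899 to 33929292), was at 9.69, 17.4, 9.07, 13.2 and 14.6 and at 4.5, 3.78 and 3.69. These groups did not overlap either, and Tapbp fell by 1.43 (SE 0.26, limma adjusted p = 0.000136). The Zbtb22 gene shares 3422 bases with Tapbp on the same strand, and its part in the Tapbp values was not tested. Tap2 (chromosome 17, 34203527 to 34216321) was at 0.85, 0.8, 0.79, 8.51 and 1.56 in MYC_HCC and at 1.89, 1.74 and 1.69 in MYC_OFF. Only MYC_HCC 4 stood high, the other 4 lay below the MYC_OFF values, and the difference was 0.03 (95% interval -0.81 to 0.88, limma adjusted p = 0.947). Without MYC_HCC 4 and 5 Tap2 was called higher in MYC_OFF (0.61, limma adjusted p = 0.018), as it was without MYC_HCC 4 alone (0.49, limma adjusted p = 0.0485). Tap1 shares 212 bases with Psmb9 on the opposite strand, and Psmb9 was itself lower in MYC_OFF (-1.24); its part in the Tap1 values was not tested.

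H2-K1 and H2-D1 are the classical heavy chains that show peptides to most CD8+ T cells. H2-K1 (chromosome 17, 33996017 to 34000347) was at 28.6, 29.4, 38.5, 79.8 and 38.9 in MYC_HCC and at 44.98, 59.8 and 77.98 in MYC_OFF. MYC_HCC 4 lay above every MYC_OFF library and the other 4 lay below them. The difference was 0.56 (95% interval -0.04 to 1.16, limma adjusted p = 0.0985). It was called higher under the 3 other scalings (1.15, 1.07 and 1.15, limma adjusted p = 0.00789, 0.0113 and 0.00643), and on the deposited scale without MYC_HCC 4 (0.81, limma adjusted p = 0.00514) or without MYC_HCC 4 and 5 (0.88, limma adjusted p = 0.0057). H2-D1 (chromosome 17, 35262730 to 35267499) was at 44.7, 31.8, 49.2, 132 and 104 in MYC_HCC and at 57.5, 59.6 and 63.7 in MYC_OFF. The MYC_OFF libraries lay close together inside the wide range of MYC_HCC, whose high values were libraries 4 and 5. The difference was -0.06 (95% interval -0.79 to 0.67, limma adjusted p = 0.895).

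**Figure D2:**
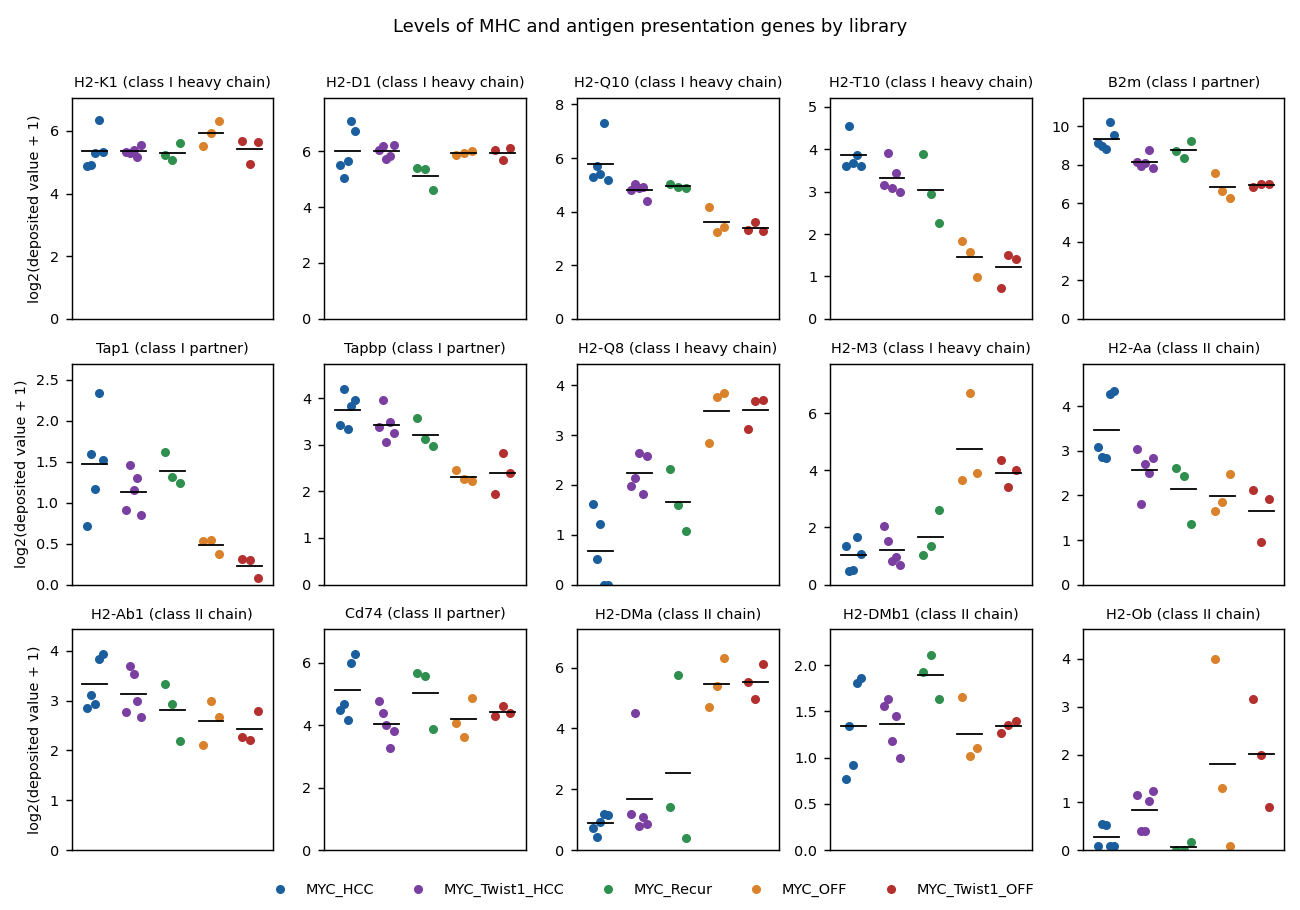
Level of 15 MHC and peptide-loading genes in each of 19 libraries, as log2(value + 1) of the deposited signal on the vertical axis, with the 5 groups along the horizontal axis. Points are libraries and black lines are group means; the B2m points of MYC_OFF (77.5 to 189.1 before the log) lie below those of MYC_HCC (443 to 1198), while the H2-K1 points of these groups overlap.

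Of the other class I heavy chains, 4 rose and 4 fell in MYC_OFF. H2-Q10, a class I molecule that liver secretes into serum (chromosome 17, 35470089 to 35474563), was at 37.9, 50.9, 41.4, 156 and 35.2 in MYC_HCC and at 16.9, 8.54 and 9.76 in MYC_OFF. The groups did not overlap, MYC_HCC 4 was far above the rest, and H2-Q10 fell by 2.16 (SE 0.36, limma adjusted p = 6.2e-05). Of the 12 hepatocyte markers 10 fell in the same comparison and none rose, with a median of -1.77 against -0.38 for all genes, and 8 to 9 fell under the 3 other scalings; their part in the H2-Q10 result was not tested. Over all genes 39.4% were called lower and 18.9% higher in that comparison as deposited. H2-T10, a non-classical chain that gamma delta T cells bind, fell from 11.1, 22.3, 11.7, 13.6 and 11.2 to 2.57, 1.97 and 0.99, again with no overlap (-2.39, SE 0.34, limma adjusted p = 1.17e-05). GENCODE lists H2-T10 as a polymorphic pseudogene and places it whole inside Gm7030 on the same strand.

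H2-L, a classical heavy chain present in some mouse strains, was at 29.9, 12.9, 36.8, 70.5 and 43.03 in MYC_HCC and at 25.2, 9.82 and 7.68 in MYC_OFF. H2-L has no position in the GENCODE annotation used here and the labels give no strain, so its values are uncertain. It was lower by limma (-1.36, SE 0.42, adjusted p = 0.00999) although the groups overlapped, and was not called without MYC_OFF 3 (-1.05, adjusted p = 0.0691), without MYC_HCC 4 and 5 (-0.90, adjusted p = 0.0706) or under the 3 other scalings. H2-K2, a transcribed pseudogene of this family, was at 4.56, 7.27, 3.36, 6.32 and 3.94 in MYC_HCC and at 3.15, 2.48 and 1.85 in MYC_OFF. The groups did not overlap and it was lower by limma (-0.78, SE 0.26, adjusted p = 0.0162); this call was lost without MYC_OFF 3 (-0.64, adjusted p = 0.0796) and under the 3 other scalings.

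H2-M3 showed the largest rise among the class I genes in this comparison. It encodes a chain that presents peptides with N-formyl methionine, as bacteria and mitochondria make them (chromosome 17, 37270220 to 37274484). Its values were 1.54, 0.39, 0.44, 2.16 and 1.12 in MYC_HCC and 11.7, 105 and 13.9 in MYC_OFF. All MYC_OFF libraries lay above all MYC_HCC libraries, with MYC_OFF 2 far above the other two, and H2-M3 rose by 3.75 (SE 0.56, limma adjusted p = 2.19e-05). Without MYC_OFF 2 the rise was 2.77 (limma adjusted p = 9.91e-05). H2-Q8, of the Qa-2 family, rose from 2.05, 0.43, 1.33, 0 and 0 to 6.21, 12.6 and 13.3 with no overlap (2.82, SE 0.38, limma adjusted p = 7.11e-06). Its neighbours H2-Q6 and H2-Q7 are near-identical copies, and reads can be split among such copies. H2-Q6 was at 3.63 and 1.39 and H2-Q7 at 3.35 and 0.57 in MYC_HCC 4 and 5, the libraries in which H2-Q8 was listed at 0, and neither exceeded 0.05 in any other library. Whether reads were split among the copies was not tested, and the values of H2-Q8 are uncertain.

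H2-Q1 and H2-Q5, 2 further genes of the Q region, were higher in MYC_OFF. H2-Q1 was at 0.58, 0.71, 0.29, 0.69 and 0.56 in MYC_HCC and at 3.64, 0.91 and 1.68 in MYC_OFF with no overlap (0.88, SE 0.28, limma adjusted p = 0.0118). It passed the filter through OFF libraries and in no MYC_HCC library. The call held with no filter on low values (limma adjusted p = 0.0137) and was lost without MYC_OFF 1 (0.54, limma adjusted p = 0.108). H2-Q5 was at 2.57, 2.43, 2.56, 5.39 and 2.33 in MYC_HCC and at 3.86, 5.38 and 11.8 in MYC_OFF, with MYC_HCC 4 inside the MYC_OFF range (0.91, SE 0.32, limma adjusted p = 0.0222). That call was lost without MYC_OFF 3 (0.51, limma adjusted p = 0.196). H2-T23, which encodes Qa-1, the ligand of the inhibitory receptor NKG2A, was at 35.9, 38.1, 32.3, 16.98 and 82.7 in MYC_HCC and at 52.5, 28.04 and 25.2 in MYC_OFF. These ranges overlapped, with no call (95% interval -0.83 to 0.60, limma adjusted p = 0.783). The remaining tested heavy chains, H2-Bl, H2-M2, H2-Q2, H2-Q4, H2-Q9, H2-T3 and H2-T24, passed no test; of these H2-M2 and H2-T3 were called higher under the 3 other scalings.

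Of the 7 tested class II genes 1 was lower and 2 were higher in MYC_OFF. H2-Aa, the alpha chain of the I-A molecule (chromosome 17, 34282744 to 34287823), was at 7.51, 6.26, 6.14, 18.4 and 19.3 in MYC_HCC and at 2.16, 2.59 and 4.59 in MYC_OFF. All MYC_OFF libraries lay below all MYC_HCC libraries, the highest of which were 4 and 5, and H2-Aa was lower by limma (-1.48, SE 0.42, adjusted p = 0.00572). Under the 3 other scalings the difference was -1.0, -1.06 and -1.0 and was not called (adjusted p = 0.0637, 0.0505 and 0.0641). H2-Ab1, its partner beta chain (chromosome 17, 34257689 to 34269419), was at 6.18, 7.6, 6.62, 13.2 and 14.3 and at 3.3, 6.93 and 5.36. The groups overlapped and the difference was -0.74 (95% interval -1.44 to -0.04, limma adjusted p = 0.0653). Cd74, the invariant chain that guards the class II groove, was at 21.7, 24.8, 16.9, 63.4 and 77.1 and at 15.8, 11.4 and 28.6. MYC_HCC 4 and 5 stood above all others, the rest overlapped, and the difference was -0.93 (95% interval -1.97 to 0.11, limma adjusted p = 0.114). H2-Eb1, the beta chain of I-E, was too low to be tested: it was at 0.16, 0.29, 0.32, 0.89 and 0.27 in MYC_HCC and at 0.42, 0.93 and 1.38 in MYC_OFF.

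H2-DMa rose in MYC_OFF by more than any other tested gene of the set. It encodes the alpha chain of H2-DM, the enzyme-like molecule that swaps the Cd74 remnant for peptide (chromosome 17, 34119541 to 34139101). Its values were 0.66, 0.34, 0.91, 1.29 and 1.25 in MYC_HCC and 25.1, 40.99 and 78 in MYC_OFF. The groups were far apart, and the rise was 4.58 (SE 0.93, limma adjusted p = 0.000419). The beta chains of H2-DM did not pass the test: H2-DMb1 was at 0.7, 1.54, 0.9, 2.49 and 2.63 against 2.14, 1.02 and 1.15 (95% interval -0.64 to 0.47), and H2-DMb2 at 1.81, 3.52, 2.18, 1.1 and 2.17 against 4.1, 1.53 and 2.76 (95% interval -0.39 to 0.89), with overlap in both. H2-DMb2 was called higher under median of ratios (0.68, limma adjusted p = 0.0392) and upper quartile scaling (0.67, limma adjusted p = 0.0461). H2-DMa shares 3094 bases with Brd2 on the opposite strand; Brd2 was at 17.4 to 33.1 in MYC_OFF and 30.4 to 53.0 in MYC_HCC, and its part in the H2-DMa values was not tested. H2-Ob, the beta chain of the H2-DO molecule that restrains H2-DM, was at 0.07, 0.46, 0.45, 0.07 and 0.06 in MYC_HCC and at 15, 1.47 and 0.07 in MYC_OFF. The call (1.53, SE 0.60, limma adjusted p = 0.0361) rested on MYC_OFF 1: without it the difference was 0.43 (limma adjusted p = 0.435), and the call was also lost without MYC_HCC 1, 4 or 5 (1.48 each, limma adjusted p = 0.0596, 0.0545 and 0.0603) or without 4 and 5 together (1.41, limma adjusted p = 0.0989). With no filter on low values H2-Ob was not called (limma adjusted p = 0.0581), and without MYC_OFF 3 its difference was 2.38 (limma adjusted p = 0.00209).

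Markers of the cells that carry class II moved in several directions in this comparison. Their counts are to be read against all tested genes, of which 18.9% were called higher and 39.4% lower. The macrophage counts lie near these shares. Of 6 tested dendritic cell markers 3 rose and none fell, with sums of 1.85 to 3.24 over the list of 10 in MYC_HCC and 4.04 to 17.4 in MYC_OFF. Only 3 B cell markers could be tested, 1 of them higher (sums of 2.08 to 7.31 in MYC_HCC and 2.60 to 20.3 in MYC_OFF), and Ms4a1 and Blk did not exceed 0.17 in any library. Of 12 tested macrophage and Kupffer cell markers 2 rose and 4 fell (sums 240 to 722 and 327 to 430), and of 7 pan-leukocyte genes 1 rose and 4 fell (sums 95 to 172 and 73.5 to 156). T and NK cell markers gave 4 higher and none lower of 9 (sums 7.27 to 12.6 and 12.9 to 41.7), and endothelial markers 3 higher and 2 lower of 7 (sums 17.7 to 106 and 75.9 to 107). Under the 3 other scalings the macrophage list turned to 3 to 5 higher and 2 lower, and the dendritic and T and NK lists kept their direction with 4 and 6 higher. Among the markers called higher, Cd209a and Cd8b1 reached 1 only in OFF libraries, and Zbtb46, Cd3g and Tek mainly there. Their calls add no support to these counts. The part of these cells in the class I and class II results was not tested.

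The 2 region genes fell. H2-Ke6, also named Hsd17b8, encodes a hydroxysteroid dehydrogenase of mitochondria and was at 48.2, 43.4, 43.1, 35.6 and 31.5 in MYC_HCC and at 10.1, 9.92 and 9.39 in MYC_OFF. There was no overlap, and it fell by 1.92 (SE 0.22, limma adjusted p = 1.44e-06). H2-KE2, also named Pfdn6, encodes a prefoldin subunit that helps actin and tubulin fold and was at 139.5, 122, 139.8, 64.6 and 133 and at 60.8, 107 and 56.5. MYC_HCC 4 lay inside the MYC_OFF range; the call (-0.68, SE 0.26, limma adjusted p = 0.0343) was lost under the 3 other scalings and without any one of MYC_HCC 1, 2, 3 or 5 or MYC_OFF 1 or 3 (-0.66 to -0.51, limma adjusted p = 0.0573 to 0.157).

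**Figure D3:**
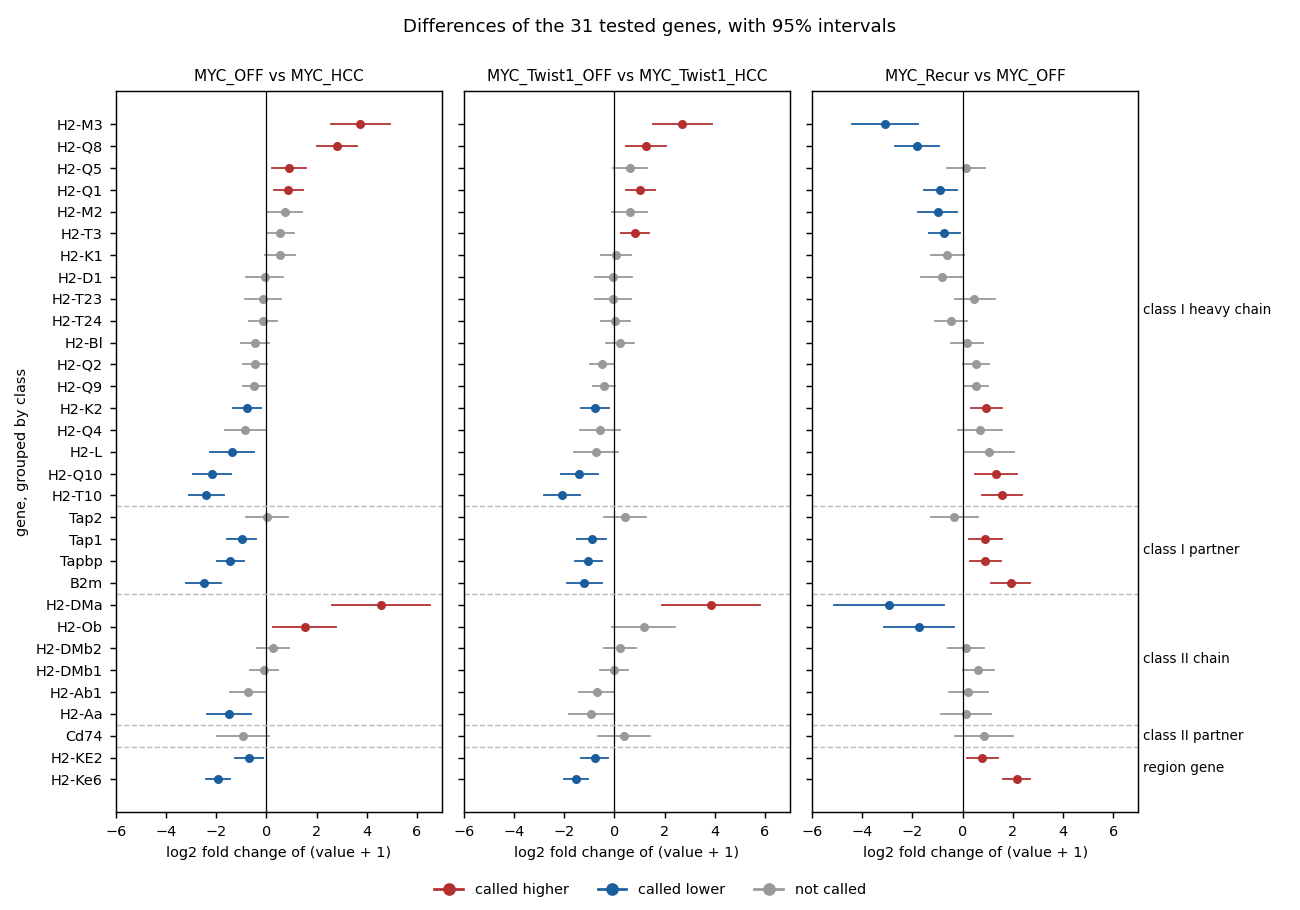
Log2 fold change with its 95% interval (horizontal) for the 31 tested genes (vertical) in 3 comparisons: MYC_OFF against MYC_HCC, MYC_Twist1_OFF against MYC_Twist1_HCC, and MYC_Recur against MYC_OFF. Red points were called higher, blue lower and grey not called; H2-DMa and H2-M3 lie farthest right in the first comparison and B2m farthest left.

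The libraries labelled MYC_Twist1_OFF were compared with MYC_Twist1_HCC, a comparison that shares no library with the one above. Of the 31 genes 5 were higher and 8 lower, where 13.1% of all tested genes were called higher and 33.5% lower by limma. The 5 higher were H2-M3, H2-Q8, H2-Q1 and H2-T3 of class I and H2-DMa of class II. Under the 3 other scalings H2-Q5 (1.03, 0.96 and 1.04, limma adjusted p = 0.0242, 0.0338 and 0.0232) and H2-M2 (0.96, 0.90 and 0.97, limma adjusted p = 0.031, 0.0431 and 0.0287) were called higher as well. The 8 lower were B2m, Tap1, Tapbp, H2-Q10, H2-T10 and H2-K2 of class I and both region genes. Of the 16 genes called in MYC_OFF against MYC_HCC, 12 (75%) were called here in the same direction, which were 12 of the 13 called here (92.3%). Over all genes 5460 calls were shared, 70.6% of the first list and 88.4% of the second. The median of all genes was -0.32 as deposited and 0.05, -0.01 and 0.06 under the 3 other scalings, and the share of calls that were higher was 28.0% and 53.1%, 48.5% and 53.6%.

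B2m was at 283, 248, 274, 439.5 and 228 in MYC_Twist1_HCC and at 112, 129 and 128 in MYC_Twist1_OFF. The groups did not overlap, and the difference was -1.21 (SE 0.33, limma adjusted p = 0.00657); under the 3 other scalings it was -0.74, -0.82 and -0.73 and not called (limma adjusted p = 0.0795, 0.0526 and 0.0747). Tapbp was at 9.4, 14.6, 7.31, 10.2 and 8.57 and at 2.83, 6.12 and 4.23, with no overlap (-1.04, SE 0.26, limma adjusted p = 0.00312). Tap1 was at 0.88, 1.74, 1.22, 1.47 and 0.8 and at 0.24, 0.23 and 0.06, also with no overlap (-0.90, SE 0.28, limma adjusted p = 0.0125); with a pseudocount of 4 it was not called (-0.32, limma adjusted p = 0.0525). The Tap1 values of MYC_Twist1_OFF were the lowest of any group. Tap2 was at 2.18, 1.39, 1.37, 1.57 and 2.24 and at 3.07, 1.92 and 3.02, with overlap and a difference of 0.41 (95% interval -0.43 to 1.25, limma adjusted p = 0.414).

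H2-K1 was at 38.7, 38.4, 41.2, 35.2 and 46.05 in MYC_Twist1_HCC and at 49.99, 29.5 and 48.6 in MYC_Twist1_OFF. The groups overlapped, with a difference of 0.06 (95% interval -0.54 to 0.66, limma adjusted p = 0.874). H2-D1 was at 65.2, 71.8, 51.7, 55.7 and 73.1 and at 64.8, 49.7 and 68.9, overlapping as well (-0.05, 95% interval -0.79 to 0.68, limma adjusted p = 0.913). H2-Q10 fell from 26.9, 31.9, 28.8, 28.98 and 19.8 to 8.9, 11.3 and 8.79 (-1.40, SE 0.36, limma adjusted p = 0.0041), beside hepatocyte markers of which 7 of 12 fell (5 to 6 under the 3 other scalings); their part was not tested. Over all genes 33.5% were called lower in that comparison as deposited. H2-T10 fell from 7.92, 14.1, 7.49, 9.87 and 6.94 to 0.65, 1.85 and 1.66 (-2.10, SE 0.34, limma adjusted p = 8.88e-05). Neither H2-Q10 nor H2-T10 overlapped between the groups.

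H2-M3 rose from 3.18, 1.85, 0.77, 0.97 and 0.6 to 19.5, 9.63 and 15.1 (2.71, SE 0.56, limma adjusted p = 0.000804). H2-Q8 rose from 2.96, 3.38, 5.25, 2.55 and 4.97 to 7.78, 11.8 and 12.03 (1.27, SE 0.38, limma adjusted p = 0.0113); with a pseudocount of 0.25 this call was lost (1.43, limma adjusted p = 0.0642). Each of these 2 genes was higher in every MYC_Twist1_OFF library than in any MYC_Twist1_HCC library. H2-T3, which encodes the thymus leukemia antigen of intestinal epithelium, rose from 0.19, 0.05, 0.08, 0.06 and 0.15 to 0.5, 0.58 and 2.07 (0.81, SE 0.26, limma adjusted p = 0.0176). H2-Q1 was at 0.47, 1.8, 0.65, 0.6 and 0.64 and at 2.66, 3.83 and 1.74 (1.03, SE 0.28, limma adjusted p = 0.00596), with MYC_Twist1_HCC 2 just above the lowest MYC_Twist1_OFF value. H2-K2 was at 5.3, 6.98, 4.16, 6.01 and 6.11 and at 1.72, 3.82 and 3.45 (-0.78, SE 0.26, limma adjusted p = 0.0212), a call lost without MYC_Twist1_OFF 1 (-0.52, limma adjusted p = 0.156) and under the 3 other scalings. Both region genes fell: H2-Ke6 from 29.3, 42.04, 25.3, 33.3 and 25.8 to 7.36, 12.1 and 10.8 (-1.54, limma adjusted p = 3.29e-05). H2-KE2 fell from a group mean of 134 ± 23.2 (SD, n = 5) to 77.0 ± 14.9 (SD, n = 3) (limma adjusted p = 0.0208), a call lost without MYC_Twist1_OFF 2 (-0.63, limma adjusted p = 0.105) and under the 3 other scalings.

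In class II, H2-DMa was at 1.26, 21.98, 0.73, 1.14 and 0.83 in MYC_Twist1_HCC and at 44.99, 30.2 and 67.7 in MYC_Twist1_OFF. MYC_Twist1_HCC 2 stood far above the other 4 of its group and still below every MYC_Twist1_OFF library. The rise was 3.84 (SE 0.93, limma adjusted p = 0.0027), and 4.55 without that library (limma adjusted p = 0.000326). The same library had the highest dendritic cell sum of its group, 15.0 against 1.46 at the lowest, of which Clec9a gave 11.8; the part of such cells in its H2-DMa value was not tested. No other class II gene was called: H2-Aa was at 7.21, 2.52, 5.48, 4.72 and 6.22 and at 3.36, 0.93 and 2.76 (-0.92, 95% interval -1.80 to -0.04, limma adjusted p = 0.0797). H2-Ab1 was at 5.82, 11.9, 10.54, 6.99 and 5.38 and at 3.81, 3.63 and 5.96 (-0.71, limma adjusted p = 0.0909). Cd74 was at 26.4, 19.98, 15.1, 8.74 and 13.01 and at 18.5, 23.5 and 20.1 (0.38, 95% interval -0.66 to 1.42, limma adjusted p = 0.55). For all 3 genes the ranges overlapped. H2-Ob was at 1.24, 0.32, 0.32, 1.05 and 1.35 and at 7.94, 2.96 and 0.87 (1.17, limma adjusted p = 0.117), a difference that was called only without MYC_Twist1_OFF 3 (1.73, limma adjusted p = 0.0416).

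Whether the OFF difference itself depended on Twist1 in the label was tested as an interaction. None of the 31 genes was called, where 0.0226% and 0.0755% of all genes were called higher and lower. At an unadjusted p under 0.05 in limma, to which these shares do not apply, 2 genes passed. The share of all genes at that level is not known here, so the 2 are given as values only. The 2 were B2m, whose OFF difference was 1.29 smaller in the Twist1 libraries (95% interval 0.30 to 2.28, limma adjusted p = 0.542), and H2-Q8 (-1.54, 95% interval -2.67 to -0.41, limma adjusted p = 0.537). MYC_Twist1_OFF against MYC_OFF, neither of them re-analysed, gave no call among the 31 genes by limma, no unadjusted p under 0.05 and a lowest adjusted p of 1, where 0% of all genes were called higher and 0.00755% lower. B2m averaged 123 ± 9.54 (SD, n = 3) in MYC_Twist1_OFF and 122 ± 59.4 (SD, n = 3) in MYC_OFF, and H2-DMa 47.6 ± 18.9 and 48.0 ± 27.1. With 3 libraries a group the intervals stay wide: that of H2-K1 was -1.18 to 0.17 and that of Cd74 -0.93 to 1.40.

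MYC_Recur was compared with MYC_OFF, 3 libraries against 3, none of them re-analysed. In this comparison B2m, Tap1 and Tapbp of the class I partners and the region genes were higher and H2-M3, H2-Q8 and H2-DMa lower in MYC_Recur. Of the 31 genes 8 were higher and 7 lower, where 37.5% of all tested genes were called higher and 12% lower by limma. The MYC_OFF libraries serve here as in the first comparison, so the differences of both are not independent and are given as values only. The median of all genes was 0.45 as deposited and -0.11, -0.03 and -0.06 under the 3 other scalings, and the share of calls that were higher was 75.8% and 45.9%, 51.2% and 49.3%.

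B2m was at 412, 320.5 and 592 in MYC_Recur, all above the MYC_OFF libraries (1.91, SE 0.37, limma adjusted p = 0.000399). Tap1 was at 2.08, 1.48 and 1.36, also above all of MYC_OFF (0.91, SE 0.31, limma adjusted p = 0.0206). Tapbp was at 10.9, 7.67 and 6.84 (0.90, SE 0.29, limma adjusted p = 0.0146). The Tap1 and Tapbp calls did not hold everywhere: under the 3 other scalings Tap1 was 0.61, 0.65 and 0.64 and Tapbp 0.31, 0.39 and 0.36 with no call. Without MYC_Recur 1 Tap1 was 0.79 (limma adjusted p = 0.0767) and Tapbp 0.73 (limma adjusted p = 0.0734), and without MYC_OFF 3 Tap1 was 0.85 (limma adjusted p = 0.0549). Tap2 was at 1.48, 0.93 and 1.22, below every MYC_OFF library, with a difference of -0.33 that was not called (95% interval -1.27 to 0.61, limma adjusted p = 0.557).

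H2-K1 was at 36.4, 32.6 and 48.1 in MYC_Recur, of which library 3 lay inside the MYC_OFF range (-0.61, 95% interval -1.28 to 0.06, limma adjusted p = 0.12). H2-D1 was at 40.8, 40.1 and 23.3, all below MYC_OFF (-0.82, 95% interval -1.64 to 0.00, limma adjusted p = 0.0901). Under the 3 other scalings both were called lower, H2-K1 at -1.31, -1.21 and -1.25 and H2-D1 at -1.51, -1.41 and -1.45. H2-Q10 rose to 31.4, 29.6 and 28.4 (1.33, SE 0.40, limma adjusted p = 0.0106), above every MYC_OFF value, beside hepatocyte markers of which 8 of 12 rose (4 to 5 under the 3 other scalings); their part was not tested. Over all genes 37.5% were called higher in that comparison as deposited. Under the 3 other scalings H2-Q10 was 0.66, 0.76 and 0.73 and not called. H2-T10 was at 13.8, 6.66 and 3.83 (1.57, SE 0.38, limma adjusted p = 0.00239) and did not overlap with MYC_OFF. H2-K2 was at 7.72, 4.39 and 5.36 (0.95, SE 0.29, limma adjusted p = 0.0115), a call lost without MYC_Recur 1 (0.76, limma adjusted p = 0.0628) and under the 3 other scalings.

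The heavy chains that were lower in MYC_Recur were H2-M3, H2-Q8, H2-M2, H2-Q1 and H2-T3. Under the 3 other scalings H2-T24 was called lower too (-1.06, -0.97 and -1.0, limma adjusted p = 0.00371, 0.00691 and 0.00581), at 5.95, 2.87 and 2.28 in MYC_Recur and 7.84, 4.53 and 3.88 in MYC_OFF as deposited. H2-M3 was at 1.06, 1.52 and 5.18, below every MYC_OFF library (-3.10, SE 0.63, limma adjusted p = 0.000574), and the difference was -2.12 without MYC_OFF 2 (limma adjusted p = 0.00262). H2-Q8 was at 3.98, 2.02 and 1.12 (-1.82, SE 0.43, limma adjusted p = 0.00183), again without overlap. H2-M2, a heavy chain of the M region, was at 0.8, 2.01 and 0.89 against 2.55, 4.18 and 3.38 (-0.99, limma adjusted p = 0.0323). H2-Q1 was at 0.77, 0.6 and 0.31 (-0.89, limma adjusted p = 0.0247) and H2-T3 at 0.1, 0.04 and 0.09 against 0.46, 1.28 and 0.72 (-0.73, limma adjusted p = 0.046). These last 3 calls were each lost without some single libraries: H2-M2 without MYC_OFF 2 or 3 or MYC_Recur 1 or 3 (-0.98 to -0.86, limma adjusted p = 0.0664 to 0.107), H2-Q1 without MYC_OFF 1 (-0.55, limma adjusted p = 0.143) or MYC_Recur 3 (-0.77, limma adjusted p = 0.0849), and H2-T3 without MYC_OFF 3 or any MYC_Recur library (-0.76 to -0.71, limma adjusted p = 0.071 to 0.0955).

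No tested class II gene was higher in MYC_Recur than in MYC_OFF by limma. An unadjusted p under 0.05 in either direction was found for 3 of the 7. Over all genes 37.5% were called higher and 12% lower even after adjustment, so this count does not set class II apart. Ciita, below the filter, was listed at 0 in all 3 MYC_OFF libraries and at 0.16, 0.31 and 0.56 in MYC_Recur. With no filter on low values it was called higher than in MYC_OFF (0.42, limma adjusted p = 0.00266) and than in MYC_HCC (0.33, limma adjusted p = 0.0282). H2-DMa was at 1.68, 53.1 and 0.33: 2 libraries lay below MYC_OFF and MYC_Recur 2 lay inside its range. The call (-2.94, SE 1.04, limma adjusted p = 0.0255) was lost without MYC_OFF 2 or 3 or MYC_Recur 1 or 3 (-2.98 to -1.88, limma adjusted p = 0.0524 to 0.154); without MYC_Recur 2 the difference was -4.55 (limma adjusted p = 0.000259). H2-Ob was at 0, 0 and 0.13 (-1.74, SE 0.67, limma adjusted p = 0.0386) with 1 MYC_OFF library at 0.07; without MYC_OFF 1 the difference was -0.64 (limma adjusted p = 0.297), and without any one MYC_Recur library the call was lost as well (-1.80 to -1.71, limma adjusted p = 0.067 to 0.0839). It was not called with no filter on low values (limma adjusted p = 0.0629), and without MYC_OFF 3 it was -2.59 (limma adjusted p = 0.00266). H2-Aa was at 5.13, 4.42 and 1.55 (95% interval -0.85 to 1.12, limma adjusted p = 0.828) and H2-Ab1 at 9.01, 6.65 and 3.57, both overlapping MYC_OFF. Cd74 was at 50.4, 46.7 and 13.9, high in libraries 1 and 2 and inside the MYC_OFF range in library 3 (0.85, 95% interval -0.31 to 2.01, limma adjusted p = 0.211). The B cell list summed to 4.38 to 32.6 in MYC_Recur and 2.60 to 20.3 in MYC_OFF, with Cd79b called higher (3.10); its part in the Cd74 values was not tested.

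The region genes rose in MYC_Recur. H2-Ke6 was at 48.9, 34.05 and 61.3 (2.15, SE 0.25, limma adjusted p = 3.71e-06), far above every MYC_OFF library. H2-KE2 was at 116, 114 and 147 (0.79, SE 0.30, limma adjusted p = 0.0333), also with no overlap; that call was lost without MYC_OFF 1 or 3 or MYC_Recur 1 or 3 (0.62 to 0.85, limma adjusted p = 0.0535 to 0.129) and under the 3 other scalings.

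Against MYC_HCC, MYC_Recur gave 1 higher and 1 lower gene of 31, where 6.9% of all genes were called higher and 3.93% lower by limma. H2-Q5, at 7.03, 8.04 and 6.41 in MYC_Recur, was above every MYC_HCC library (1.05, SE 0.32, limma adjusted p = 0.0426). H2-Aa was lower, its highest MYC_Recur value, 5.13, lying under the lowest of MYC_HCC, 6.14 (-1.35, SE 0.42, limma adjusted p = 0.0467). Both calls sat near the threshold and both were lost under the 3 other scalings. H2-Aa was not called without MYC_HCC 1, 4 or 5 or MYC_Recur 2 or 3 (-1.5 to -0.95, limma adjusted p = 0.0535 to 0.243), nor without MYC_HCC 4 and 5 (-0.79, limma adjusted p = 0.259); H2-Q5 was not called without MYC_HCC 1, 2, 3 or 5 or any MYC_Recur library (0.98 to 1.12, limma adjusted p = 0.0714 to 0.143). B2m differed by -0.59 (95% interval -1.29 to 0.11, limma adjusted p = 0.289) and H2-D1 by -0.88 (limma adjusted p = 0.119), neither called.

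MYC_Twist1_HCC and MYC_HCC, both re-analysed libraries, differed in 2 of the 31 genes, 1 higher and 1 lower, where 3.2% of all genes were called higher and 3.23% lower by limma. B2m was lower in every MYC_Twist1_HCC library than in any MYC_HCC library (-1.16, SE 0.29, limma adjusted p = 0.0235). H2-Q8 was higher without overlap (1.56, SE 0.33, limma adjusted p = 0.00952), with the uncertainty of its near-identical copies. Neither was called without MYC_HCC 4 and 5 (B2m -0.79, limma adjusted p = 0.131; H2-Q8 1.12, limma adjusted p = 0.0804). The B2m call was lost too without MYC_HCC 5 or without MYC_Twist1_HCC 1, 2 or 5 (-1.16 to -1.08, limma adjusted p = 0.052 to 0.0688). H2-K1 and H2-D1 gave intervals of -0.52 to 0.51 and -0.63 to 0.64 around differences near 0. H2-Aa and Cd74 were -0.90 (limma adjusted p = 0.138) and -1.08 (limma adjusted p = 0.13), with the high values in MYC_HCC 4 and 5 where macrophage sums were 240 and 722; their part was not tested. No class II gene was called by limma. An unadjusted p under 0.05 was found for 2 of them. The share of all genes at that level is not known here, so this count is not read as a result.

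Class I and class II were set side by side by their counts and medians, which are not a test of a difference between them. The counts include genes that passed the filter mainly through OFF libraries, whose calls add no support to them. H2-Q1 is among the higher class I genes in both OFF comparisons, and H2-T3 in that of MYC_Twist1_OFF. H2-Ob is among the higher class II genes in MYC_OFF. In MYC_Recur against MYC_OFF, H2-Q1, H2-T3 and H2-Ob are all among the lower genes. In MYC_OFF against MYC_HCC, 4 of 22 class I genes were higher and 7 lower, and 2 of 7 class II genes were higher and 1 lower, where 18.9% of all genes were higher and 39.4% lower. Neither class I count exceeds its share over all genes. The median log2 fold change was -0.28 for class I and -0.08 for class II against -0.38 for all genes, and turned to 0.09 to 0.14 and 0.42 to 0.47 against 0.04 to 0.10 under the 3 other scalings. In MYC_Twist1_OFF against MYC_Twist1_HCC, class I gave 4 higher and 6 lower and class II 1 higher and none lower. Of all genes 13.1% were higher and 33.5% lower. At an unadjusted p under 0.05 in limma 3 of 7 class II genes passed, a level that at least these shares of all genes reached. The medians were -0.05 for class I, 0.22 for class II and -0.32 for all genes, and 0.34 to 0.42, 0.46 to 0.52 and -0.01 to 0.06 under the other scalings. In MYC_Recur against MYC_OFF, class I gave 6 higher and 5 lower and class II none higher and 2 lower, where 37.5% of all genes were higher and 12% lower. The medians were 0.33 for class I, 0.15 for class II and 0.45 for all genes, and turned to -0.16 to -0.09, -0.38 to -0.31 and -0.11 to -0.03 under the other scalings. Within class I, 3 of 4 tested partners were lower in each OFF comparison, against 4 and 3 of 18 heavy chains. No partner was higher, while 4 heavy chains were higher in each. Under the 3 other scalings the lower calls of B2m in MYC_Twist1_OFF, H2-K2 in both comparisons and H2-L in MYC_OFF were lost.

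**Figure D4:**
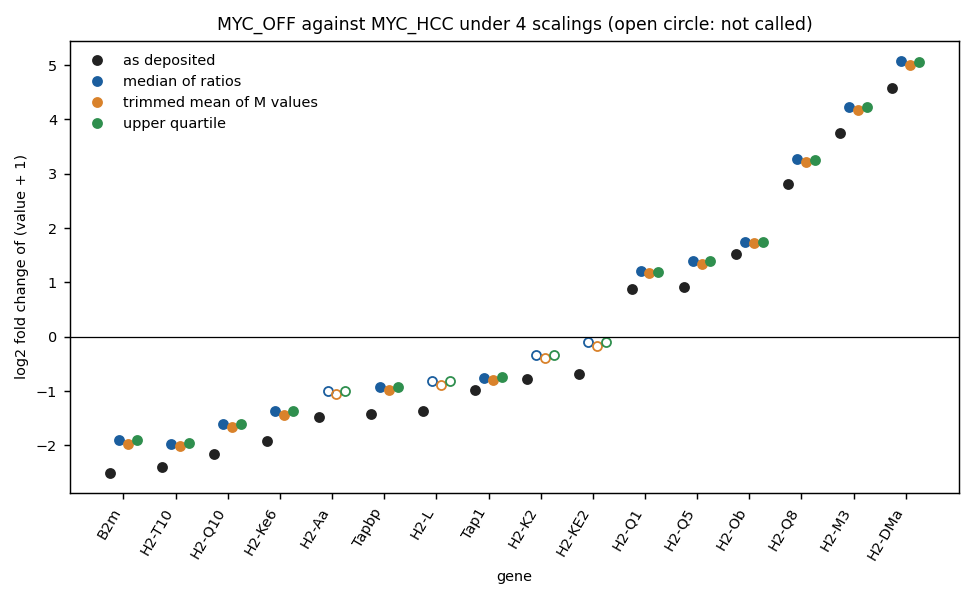
Log2 fold change in MYC_OFF against MYC_HCC (vertical) of the 16 called genes (horizontal) on the deposited scale and after 3 scalings of the libraries. Filled points were called and open circles were not; all points keep their sign, and H2-Aa, H2-K2, H2-L and H2-KE2 are open under all 3 scalings.

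Genes that act before peptide loading were counted from lists. These counts are to be read against all tested genes, of which 18.9% were higher and 39.4% lower in MYC_OFF against MYC_HCC (median -0.38), 13.1% and 33.5% in MYC_Twist1_OFF against MYC_Twist1_HCC (median -0.32), and 37.5% and 12% in MYC_Recur against MYC_OFF (median 0.45). A list of 10 other class I pathway genes (immunoproteasome, its activators and the folding chaperones) gave 2 higher and 5 lower in MYC_OFF against MYC_HCC, with a median of -0.98. The chaperones Calr (-2.93, limma adjusted p = 2.53e-07) and Pdia3 (-1.89), which hold the empty heavy chain, and the immunoproteasome subunit Psmb10 (-2.44) fell. Psmb8, another immunoproteasome subunit, rose (1.32). The counts of 2 and 5 were the same under the 3 other scalings. In MYC_Twist1_OFF against MYC_Twist1_HCC the list gave 1 higher and 4 lower (median -0.52), with Calr at -2.26, Psmb10 at -1.83 and Pdia3 at -1.67; these were the 3 called lower under the other scalings, beside 2 to 3 higher. In MYC_Recur against MYC_OFF it gave 5 higher and 1 lower (median 0.83), with Calr at 2.81 and Psmb8 at -1.59; under the other scalings it gave 3 higher and 2 lower. In MYC_Twist1_HCC against MYC_HCC only Psme1, a subunit of the proteasome activator PA28, was called (-0.85, limma adjusted p = 0.0306).

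Of the genes that prepare class II peptides in endosomes, Ctsl, Ctss and Ifi30 were called lower in both OFF comparisons, and the proteases Ctsb and Lgmn were not. Of 8 tested class II pathway genes 1 was higher and 5 lower in MYC_OFF against MYC_HCC (median -0.74). Among them cathepsin L (Ctsl, -3.13, limma adjusted p = 4.79e-07), cathepsin S (Ctss, -2.61), which cuts Cd74, and the thiol reductase Ifi30 (-2.58) fell, and Lgmn, an asparagine-specific protease, rose (0.84). The protease Ctsb (-0.71) and the class II regulator Rfxank (-0.77) were called lower on the deposited scale alone; under the other scalings Lgmn stayed called higher and Rfx5 joined it under 2 of them. In MYC_Twist1_OFF against MYC_Twist1_HCC 3 were lower (median -0.53): Ifi30 (-2.83), Ctsl (-2.19) and Ctss (-2.10). In MYC_Recur against MYC_OFF 3 were higher (median 0.66): Ifi30 (3.03), Ctsl (3.01) and Ctss (1.97). All 3 genes were called in all 3 comparisons under the other scalings too, where Lgmn was also called lower in MYC_Recur. Of 8 tested interferon gamma signalling genes, 4 were lower in MYC_OFF (median -0.99), among them Irf8 (-2.44), Ifngr1 (-1.27) and Jak1 (-1.16). In MYC_Twist1_OFF 3 were lower (median -0.68), and in MYC_Recur against MYC_OFF 4 were higher (median 0.77). These 3 counts lie near the shares of all genes. Under the other scalings these counts were 3 lower and 1 higher (Ifngr2), 1 to 2 lower, and 1 to 2 higher and 1 lower (Irf1). Ifng itself was listed at 0 in 17 libraries and did not exceed 0.11.

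Across the 19 libraries, pairs of genes within class I ranged from strongly positive to strongly negative correlation. On log2(value + 1), B2m had a Pearson r of 0.92 with H2-Q10, -0.23 with H2-K1, 0.00 with H2-D1 and 0.64 with H2-Aa, and of -0.94 with H2-Q8, -0.79 with H2-DMa and -0.72 with H2-M3. The pair H2-T10 and Tapbp had an r of 0.96. The 5 genes outside the set most like H2-K1 were Cdh2 (0.871), Ephx1 (0.844), Cpt1b (0.844), Itga8 (0.814) and Arrdc3 (0.808), and those most like H2-Aa were Pmp22 (0.893), Il10rb (0.879), Cdh5 (0.869), Dst (0.866) and Lasp1 (0.86). These values describe 19 libraries that share groups and an unknown depth, and MYC_HCC 4 and 5 carry the highest H2-Aa values.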

How the data were processed

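RNA of 19 bulk tumor samples was measured. The deposited table holds a normalised expression signal per gene and library, to 2 decimals; no source used here gives its formula, strand setting or annotation. Per the submitters' processing notes, the authors used Trimmomatic, STAR, Picard, featureCounts and DESeq2 with build mm10. No counts or depths are in that table and whole reads could not be recovered, so no count model, interval or floor from depth is given. Of 19511 entries, 25 with a bare number as symbol were left out; 0 columns were left unmapped.

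Groups came from the labels. Values were tested as log2(value + 1) by limma (3.58.1, R 4.3.3; trend on mean intensity), 5 group means fitted together (14 residual degrees of freedom) and Benjamini-Hochberg adjustment over the 13253 genes at 1 or more in at least 3 libraries; a gene was called at an adjusted p under 0.05. Comparisons were the 6 pairs of groups reported and the interaction. On simulated data with 200 genes shifted by 2 on the log2 scale, 86.5% were recovered for MYC_OFF against MYC_HCC and 89% for MYC_Twist1_HCC against MYC_HCC. Recovery was 85.5% for MYC_Recur against MYC_HCC and 82% for MYC_Twist1_OFF against MYC_Twist1_HCC. It was 80% for MYC_Recur against MYC_OFF and 76% for MYC_Twist1_OFF against MYC_OFF. Between 2.73% and 6.29% of the simulated calls were false. The simulation used independent normal noise, drew the shifted genes from above the lowest mean levels and held no shift of all genes. These rates therefore do not cover the lowest genes or a shift of the whole scale. Alternatives were other pseudocounts, filters and scalings, the compared groups alone, a replicate block, each library left out, and MYC_HCC 4 and 5 left out; the scalings of the pathway and marker lists were added after seeing the data. The genes and lists were chosen with earlier results of these data known. Values by library are given for the main class I and class II genes whatever their result and for every gene called at least once; other genes are given by range or count. Sequences and positions come from RefSeq and GENCODE on GRCm38; 44 of the 49 symbols matched a current mouse gene name. Some genes of the pathway and marker lists are not reported here by name.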

Additional observations from a re-analysis of the deposited data

Results flagged for a closer look

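Among the 10 HCC libraries, 62 pairs of a gene and a group of 5 were searched for a library far from the rest. Such a library was found in 13 pairs, and groups of 3 libraries were not examined. For independent, normally distributed values chance gives about 1 in 20. Here the deposited values were used without a log and the pairs share libraries, so that rate is only a rough guide. MYC_HCC 4 was the high library for 6 class I genes. It held H2-K1 at 79.9 (next highest 38.9), H2-Q10 at 155.6 (50.9), H2-Q4 at 36.2 (23.7), H2-Q5 at 5.39 (2.57), H2-T3 at 1.04 (0.08) and Tap2 at 8.51 (1.56). The same library was the low one for H2-KE2, at 64.6 where the next lowest was 121.9. MYC_HCC 2 held H2-T10 at 22.3 where the next was 13.6.

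In the other HCC group, MYC_Twist1_HCC 2 held H2-Q4 at 80.8 (next highest 21.7), H2-Q1 at 1.80 (0.65) and H2-DMa at 22.0 (1.26). MYC_Twist1_HCC 4 held B2m at 439.5 (283) and MYC_Twist1_HCC 3 held H2-KE2 at 174.4 (129.9).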

How the results depend on the processing

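Of 48 gene results called in a comparison, 22 were called under every setting in which the gene was tested, among them B2m, Tap1, Tapbp, H2-Q10, H2-T10, H2-M3, H2-Q8, H2-DMa and H2-Ke6 in MYC_OFF against MYC_HCC. Tap1, at most 4.06 in any library, was not tested under the filter of 5 in 3 libraries. Over 797 checks of called genes, 669 stayed called, 128 lost the call and 0 turned direction. Leaving out one library gave 1 to 2 called genes in MYC_Twist1_HCC against MYC_HCC, 12 to 18 in MYC_OFF against MYC_HCC, 12 to 14 in MYC_Twist1_OFF against MYC_Twist1_HCC, 8 (without MYC_Recur 1) to 15 in MYC_Recur against MYC_OFF, 0 to 3 in MYC_Recur against MYC_HCC, and 0 in MYC_Twist1_OFF against MYC_OFF and in the interaction. Without MYC_HCC 4 and 5, MYC_Twist1_HCC against MYC_HCC gave 0 called genes of the set (and 350 over all genes, where 852 were called with them). MYC_Recur against MYC_HCC, with 2 called genes, gave 1 with a pseudocount of 0.25, 1 with a pseudocount of 4, 1 with its groups fitted alone, and 0 under median of ratios, trimmed mean of M values or upper quartile scaling; the cause was not tested.

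The numbers in the titles pair no samples by label. Correlations of same-numbered deviations ran from -0.17 to 0.38. With the replicate block the called genes were 3, 18, 15, 15 and 0 in the first 5 comparisons named above and 0 in the other two; the block gave 0 for MYC_Recur against MYC_HCC. Depth is unknown, so low genes such as H2-Ob, H2-T3 and Tap1 carry an unstated counting error.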
